A study of Mus musculus with 6 samples.

Results

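The genes described here were 8 core members of the Akt and mTOR pathway, Akt1, Akt2, Pdpk1, Tsc1, Tsc2, Mtor, Rptor and Rictor, out of 21911 protein-coding genes on chromosomes 1 to 19, X and Y. They were examined in H3K4me3 ChIP-Seq peak lists of STHdh cells, which are conditionally immortalized striatal progenitor cells of C57BL/6 mice. The mark, H3K4me3, is a histone modification found at the promoters of active genes. A gene was called marked in a list if any of its GENCODE vM21 transcript starts had a peak within 1 kb, and its strongest such peak gave its strength and width. All 8 genes were found in the annotation.

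There were 6 lists, 1 for each condition, and all cells were kept for 24 hours in medium without serum. Q7SST came from the wild-type STHdhQ7 line with vehicle, and Q111SST from the STHdhQ111 line, which is homozygous for a knocked-in huntingtin gene with an expanded glutamine tract, with vehicle. The other 4 lists came from STHdhQ111 cells given cyproheptadine, loxapine, diacylglycerol kinase inhibitor II (DKI) or meclizine, each at 10 uM. Each genotype was 1 cell line, so genotype and line cannot be told apart, and each condition had only 1 list, which leaves no replicate error to test against: every difference below describes these lists. Strength is given as the percentile of a peak's score among all peaks of its own list, since the scale of the deposited score was not stated and the lists held from 30758 (DKI) to 45564 (loxapine) peaks.

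Akt1 and Akt2 encode protein kinases that are activated by growth factors through phosphoinositide 3-kinase, and Pdpk1 encodes PDK1, the kinase that phosphorylates their activation loop. Active Akt inhibits the complex of Tsc1 (hamartin) and Tsc2 (tuberin), which otherwise switches off the small GTPase Rheb, the activator of mTOR. The mTOR kinase works in a pair of complexes. The complex with raptor (Rptor) promotes protein synthesis and restrains autophagy, and the complex with rictor (Rictor) phosphorylates Akt. The study asked how compounds act on mutant cells, and autophagy was among the processes it considered for cyproheptadine and loxapine.

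All 8 genes were marked in all 6 lists. Marking was also common among protein-coding genes at large, with 59.9% marked in Q7SST and 58.4% in Q111SST. Among the compounds the share was 55.4% after cyproheptadine, 58.1% after loxapine, 55.8% after DKI and 58.6% after meclizine, and 53.5% of genes were marked in all 6 lists. The median strength of the 8 genes was percentile 84.2 in Q7SST, 80.4 in Q111SST, 75.5 after cyproheptadine, 81.3 after loxapine, 70.3 after DKI and 78.0 after meclizine. The median over all marked coding genes was 80.4, 82.6, 79.5, 83.0, 76.3 and 80.3 in the same order. The median of the 8 genes was therefore above that of all marked genes in Q7SST and below it in the 5 lists of mutant cells. By count there was no such split: 4 of the 8 genes lay above the median of all marked genes in Q7SST, Q111SST and meclizine. With loxapine 3 did, and with cyproheptadine and DKI 2 did. Single genes spread widely, from percentile 45.1 (Tsc1 with DKI) to percentile 99.3 (Akt2 with loxapine).

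**Figure D1:**
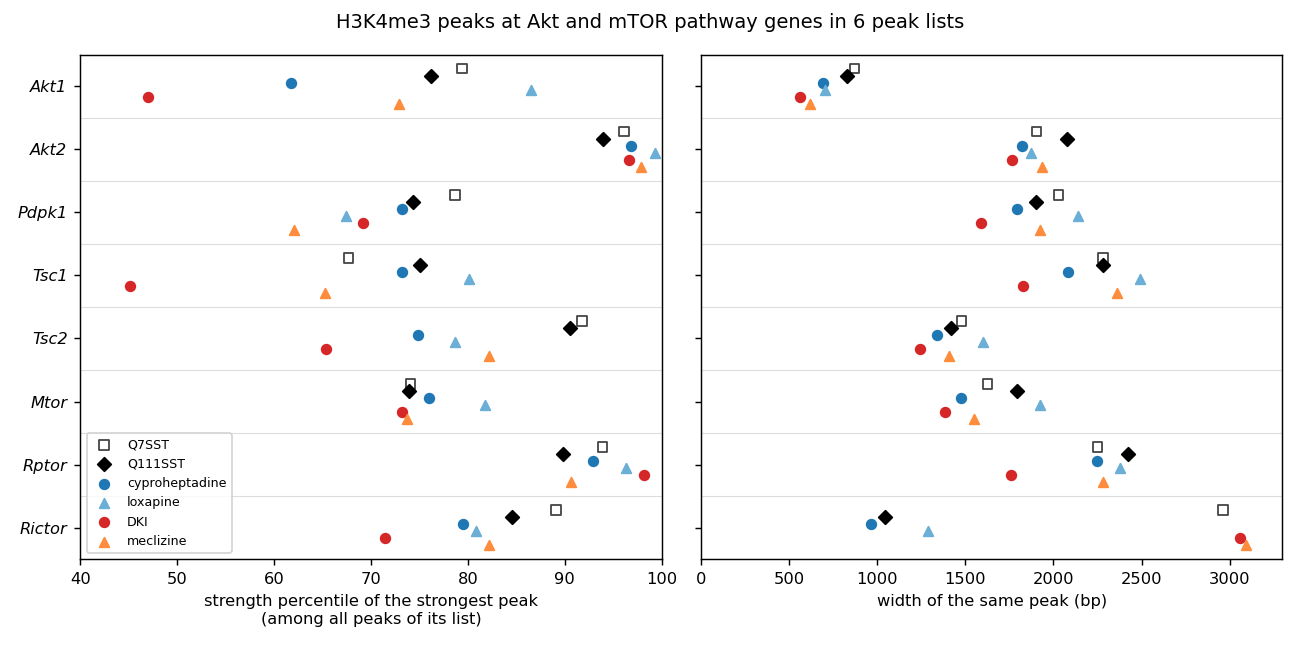
Strength percentile (left) and width in bp (right) of the strongest peak near a start of each of the 8 genes, with 1 symbol for each of the 6 lists. Akt2 and Rptor sit near or above percentile 90 in every list, Akt1, Tsc1 and Tsc2 are spread over 26.4 points or more, and the Rictor widths fall into a wide set (Q7SST, DKI, meclizine) and a narrow set (Q111SST, cyproheptadine, loxapine).

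The reference promoter sequences that the peaks turned on are shown first. Windows of 300 bases, from 250 before to 50 after a start, were taken from RefSeq (GRCm38.p6), which held 13 windows for the 8 genes. Sequences run 5′ to 3′ on the gene's strand, and capitals mark exact matches on either strand to the CCAAT box (CCAAT), the GC box (GGGCGG), the TATA box (TATAAA), an ETS-type motif (CCGGAAG), part of the NRF1 motif (GCATGCGC), an E-box (CACGTG) and a forkhead motif (GTAAACA). Positions of matches are counted from the start site. The windows of Rictor and the inner start of Akt1 are shown because they lay in gaps between peaks, those of Pdpk1 because only one of the pair carried a peak, and that of Tsc2 because it serves a pair of divergent genes.
Rictor, chr15:6708131-6708430, plus strand: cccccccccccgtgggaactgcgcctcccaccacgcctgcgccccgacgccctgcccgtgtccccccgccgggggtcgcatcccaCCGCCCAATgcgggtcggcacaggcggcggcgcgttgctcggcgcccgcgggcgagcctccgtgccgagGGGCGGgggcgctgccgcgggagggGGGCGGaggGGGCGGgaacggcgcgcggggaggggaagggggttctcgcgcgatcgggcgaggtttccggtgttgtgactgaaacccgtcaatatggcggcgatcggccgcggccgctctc
Akt1 inner start, chr12:112674227-112674526, minus strand: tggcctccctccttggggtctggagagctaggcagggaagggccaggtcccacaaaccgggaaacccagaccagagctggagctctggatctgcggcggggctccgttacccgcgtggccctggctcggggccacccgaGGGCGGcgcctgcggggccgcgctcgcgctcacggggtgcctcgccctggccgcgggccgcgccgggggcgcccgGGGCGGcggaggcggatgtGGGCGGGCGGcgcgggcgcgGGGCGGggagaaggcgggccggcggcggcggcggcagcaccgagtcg
Pdpk1 upstream start, chr17:24150873-24151172, minus strand: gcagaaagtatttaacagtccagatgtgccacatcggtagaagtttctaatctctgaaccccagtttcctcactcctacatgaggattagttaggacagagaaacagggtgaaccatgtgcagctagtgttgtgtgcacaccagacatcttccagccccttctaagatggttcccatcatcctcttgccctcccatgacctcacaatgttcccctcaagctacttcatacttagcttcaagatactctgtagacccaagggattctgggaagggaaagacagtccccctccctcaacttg
Pdpk1 downstream start, chr17:24141545-24141844, minus strand: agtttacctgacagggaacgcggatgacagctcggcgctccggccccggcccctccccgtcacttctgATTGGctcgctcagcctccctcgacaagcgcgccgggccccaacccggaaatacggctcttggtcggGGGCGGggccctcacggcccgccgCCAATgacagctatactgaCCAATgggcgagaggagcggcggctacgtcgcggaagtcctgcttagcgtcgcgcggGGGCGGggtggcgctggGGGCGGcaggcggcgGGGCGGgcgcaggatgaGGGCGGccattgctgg
Tsc2, chr17:24632578-24632877, minus strand: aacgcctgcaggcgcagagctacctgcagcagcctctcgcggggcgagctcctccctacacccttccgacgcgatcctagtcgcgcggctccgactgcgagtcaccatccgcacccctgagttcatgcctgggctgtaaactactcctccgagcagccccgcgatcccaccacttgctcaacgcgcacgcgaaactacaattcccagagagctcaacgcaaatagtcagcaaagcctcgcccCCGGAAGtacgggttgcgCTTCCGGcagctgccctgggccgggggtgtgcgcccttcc

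Of all 32851 windows, 37.4% held CCAAT, 35.7% GGGCGG, 13.6% TATAAA, 8.86% CCGGAAG, 2.71% GCATGCGC, 7.15% CACGTG and 3.65% GTAAACA. No window of the 8 genes held the TATA box, the NRF1 part or the E-box. The median window had 52.7% G+C and a CpG frequency of 0.384 relative to its base composition, and the furthest upstream windows of 7 of the 8 genes lay above that CpG median. Pdpk1 was the exception, at 0.0601. The Akt1 inner window had 79.7% G+C, with 5 GC boxes of which a pair overlap, and the Rictor window had 78.3% G+C, with 4 GC boxes and 1 CCAAT match that overlaps the first of them. Of 20150 windows of protein-coding genes, 98.6% had a lower G+C content than the Akt1 inner window and 97.6% a lower one than the Rictor window.

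Akt1 (chromosome 12, 112653821 to 112674884, minus strand) carried a pair of peaks in each of the 6 lists, with its inner starts between them. The gap between the peaks was 923 bp in Q7SST, 1031 bp in Q111SST, 1066 bp after cyproheptadine, 1086 bp after loxapine, 989 bp after DKI and 996 bp after meclizine. The inner window shown above lay wholly within the gap in 5 lists, and 34 of its 300 bases were under a peak with DKI. Such a start, with no peak over it and a peak within 1 kb on each side, was found in all 6 lists for 1.36% of coding genes (297 genes).

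The strongest Akt1 peak was the downstream one, inside an intron, in all lists except DKI, where both peaks had a score of 43 and the wider upstream one was taken. Its strength was percentile 79.4 in Q7SST, 76.2 in Q111SST, 61.7 after cyproheptadine, 86.5 after loxapine, 47.0 after DKI and 72.9 after meclizine. The upstream peak, over the furthest upstream start, lay at percentile 36.5, 40.6, 57.7, 58.8, 47.0 and 56.1 in the same order. The peaks on either side of the gap therefore differed in order: against Q111SST, the downstream peak was lower with cyproheptadine, DKI and meclizine, while the upstream peak was higher with all 4 compounds. Taking only peaks over a start turned the Akt1 strength difference from -14.5 to 17 points with cyproheptadine and from -29.2 to 6.39 points with DKI. It also turned from -3.24 to 15.5 points with meclizine and from 3.2 to -4.11 points in Q7SST. The widths of the strongest peak ran from 559 bp with DKI to 870 bp in Q7SST, the narrowest of the 8 genes in every list.

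Akt2 (chromosome 7, 27591552 to 27640826, plus strand) had the steadiest strong peak. It covered the first starts in all 6 lists, with 772 bp of exon under it in 5 lists and 698 bp with DKI, at percentile 96.1 in Q7SST, 94.0 in Q111SST, 96.8 after cyproheptadine, 99.3 after loxapine, 96.6 after DKI and 97.9 after meclizine. Its widths lay between 1763 bp with DKI and 2077 bp in Q111SST. All 5 other lists lay above Q111SST in strength, by 2.05 points in Q7SST up to 5.32 points with loxapine, and below it in width.

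Akt2 also had starts 16.2 kb further downstream, between positions 27607748 and 27608662, that were marked in some lists. A peak lay over all but the last of them in Q111SST (711 bp, score 24), loxapine (809 bp, score 21) and meclizine (830 bp, score 34). These peaks stood at percentiles 25.9, 19.4 and 31.4. In Q7SST, cyproheptadine and DKI the nearest peak to these starts was the promoter peak, at least 14844 bp away. The internal Akt2 windows of RefSeq, at chr7:27596580-27596879, chr7:27605547-27605846 and chr7:27607086-27607385, had CpG ratios of 0, 0.194 and 0.111, and none was under a peak in any list.

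Pdpk1 (chromosome 17, 24073680 to 24150924, minus strand) was marked at a start cluster 9.33 kb inside the gene. The strongest peak in every list covered the starts between 24140807 and 24141595, whose window, shown above, had 71.7% G+C, a CpG ratio of 0.967, 5 GC boxes and 3 CCAAT matches. All 300 bases of that window were under the peak in all 6 lists, and 0 bases of the upstream window, which has 48.0% G+C and no match to the motifs, were under a peak in any. The strength of the internal peak was percentile 78.7 in Q7SST, 74.3 in Q111SST, 73.2 after cyproheptadine, 67.4 after loxapine, 69.2 after DKI and 62.1 after meclizine. All 4 compound lists lay below both vehicle lists on this scale. With lists of equal size and among marked promoters, cyproheptadine lay above Q111SST by 4.4 and 5.69 points and DKI by 2.99 and 6.3, and the order held for loxapine and meclizine.

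The presence of a peak near the upstream Pdpk1 start depended on the 1 kb limit. A separate upstream peak lay 807 bp from that start in Q7SST and 842 bp in meclizine, just inside the limit. It lay 1006 bp away in Q111SST, 1131 bp with loxapine, 1176 bp with DKI and 1274 bp with cyproheptadine, just outside it. A weaker start at 24120794 had a peak within 1 kb in Q111SST, loxapine, DKI and meclizine, at percentiles 43.0, 38.3, 25 and 34.8. The Q7SST peak there lay 1211 bp away, and the nearest cyproheptadine peak 9428 bp away.

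Tsc1 (chromosome 2, 28641228 to 28691167, plus strand) had 1 broad peak over its first exon and the start of its first intron in each list. Its strength was percentile 67.7 in Q7SST, 75.1 in Q111SST, 73.2 after cyproheptadine, 80.1 after loxapine, 45.1 after DKI and 65.3 after meclizine. The DKI list stood 20.2 points or more below each of the others. Its widths were 2281, 2279, 2085, 2491, 1828 and 2361 bp in the same order, so the DKI peak was also the narrowest. The peak began within 115 bp of the same upstream position in all 6 lists, and its downstream edge ended 1186 bp past the start with DKI, against 1558 to 1872 bp in the others. Its 4 other start clusters had no peak within 1 kb in any list.

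Tsc2 (chromosome 17, 24595816 to 24632630, minus strand) shared its only promoter peak with Nthl1, a DNA glycosylase gene transcribed the other way, in all 6 lists. Their closest starts lay 50 bp apart, so the peak cannot be assigned to one of them. The Tsc2 window held a pair of CCGGAAG matches in opposite directions, at -8 and 10, and lay wholly under the peak in every list. The strength was percentile 91.8 in Q7SST, 90.5 in Q111SST, 74.9 after cyproheptadine, 78.7 after loxapine, 65.4 after DKI and 82.2 after meclizine. The vehicle lists differed by 1.37 points, and all 4 compound lists lay below them, with differences from Q111SST between -8.32 points (meclizine) and -25.1 points (DKI). The widths showed no such order, from 1241 bp with DKI to 1600 bp with loxapine, with 1479 bp in Q7SST and 1421 bp in Q111SST. Tsc2 was the only one of the 8 genes weaker than Q111SST by at least 5 points with every compound. The same held for 8.17% of the 11918 coding genes marked in these 5 lists, including Prkaa2 and Sesn1 of the wider pathway, which were picked out after their values were seen, and all 4 differences share the Q111SST list.

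Mtor (chromosome 4, 148448611 to 148557683, plus strand), the kinase itself, stood close to Q111SST in 4 of the 5 other lists. Its peak lay at percentile 74.1 in Q7SST, 73.9 in Q111SST, 76.0 after cyproheptadine, 81.8 after loxapine, 73.2 after DKI and 73.7 after meclizine. Loxapine alone was more than 5 points from Q111SST on this scale. With lists of equal size and among marked promoters, cyproheptadine lay 7.88 and 11.6 points and DKI 7.42 and 13.5 points above Q111SST. At the pooled median score, meclizine lay 7.82 and Q7SST 6.32 points above it, and among marked promoters Q7SST lay 5.97 above it. The width ran from 1387 bp with DKI to 1922 bp with loxapine, and the DKI peak was 0.773 times as wide as the Q111SST peak. The Mtor window, chr4:148448332-148448631, lay under the peak in all 6 lists and held 4 CCAAT, 2 GGGCGG and 1 CCGGAAG match.

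Rptor (chromosome 11, 119602905 to 119899576, plus strand) had a strong promoter peak that was highest after DKI, the list in which 5 of the other 7 genes were at their lowest. It lay at percentile 93.9 in Q7SST, 89.8 in Q111SST, 92.9 after cyproheptadine, 96.3 after loxapine, 98.2 after DKI and 90.7 after meclizine. With DKI it was 8.38 points above Q111SST, more than for 95.3% of the genes marked in both lists, and at 1760 bp it was narrower than the 2424 bp of Q111SST. The upstream edge lay within 74 bp of one position in all 6 lists, and the difference in width came at the downstream edge, which ended 1082 bp past the first coding start with DKI and 1498 to 1718 bp past it elsewhere.

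Rptor also held more peaks away from starts than any other of the 8 genes, but it is the longest, and counts were not scaled to length. Rictor, 92023 bp long, had 4 such peaks in Q7SST, Q111SST and cyproheptadine, 3 with loxapine and DKI and 2 with meclizine. The Rptor body, 296672 bp long, had 10 such peaks in Q7SST, 13 in Q111SST, 12 after cyproheptadine, 12 after loxapine, 4 after DKI and 11 after meclizine. The DKI count was 0.308 of that in Q111SST, where peaks in all gene bodies together gave 0.641. The peaks merged into 16 regions, of which 4 were found in all 6 lists, 3 in 1 list and 1 touched an exon. The 4 regions found in all 6 lists lay 82755, 174510, 191407 and 260400 bp from the first coding start, and these were the only body peaks left with DKI. Their highest percentiles were 53.1, 65.6, 52.3 and 46.7. A further peak near internal Rptor starts, at 119856468 to 119857082 with a score of 29, was present only in Q7SST among the 6 lists.

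**Figure D2:**
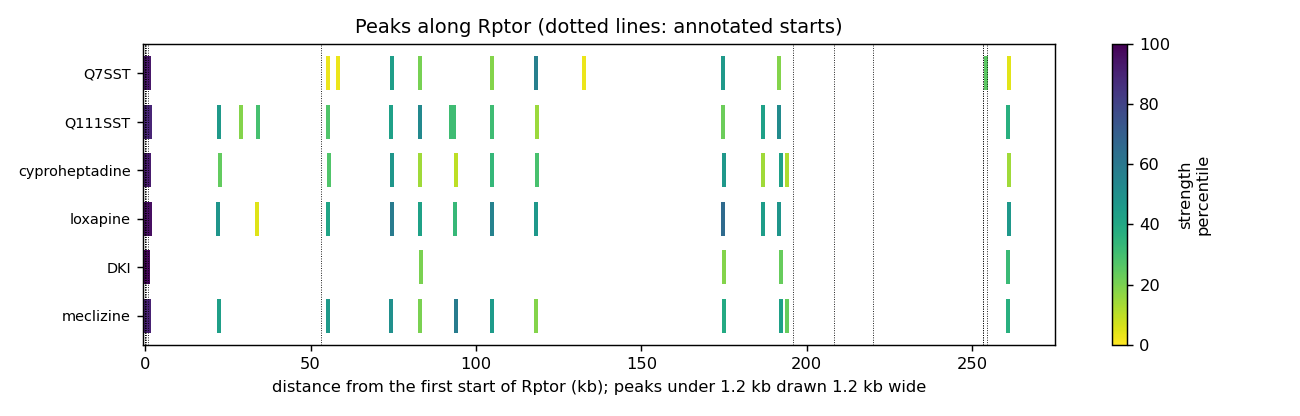
Peaks along Rptor in each of the 6 lists, by distance in kb from the first start, coloured by strength percentile in their list (peaks under 1.2 kb are drawn 1.2 kb wide, and dotted lines are annotated starts). The promoter peak at the left is dark in every list, and the DKI row holds 4 weaker peaks in the gene body where Q111SST holds 13.

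Among the other 7 genes, Mtor and Rictor had 5 body regions each, Pdpk1 3 and Tsc1 1, and Akt1, Akt2 and Tsc2 had none. Of these, 1 Mtor region (148512736 to 148513926) and 2 Rictor regions (6721192 to 6722567 and 6725904 to 6727412) were found in all 6 lists. They were intronic and at most at percentile 39.1 for Mtor, and 44.7 and 60.8 for Rictor.

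Rictor (chromosome 15, 6708379 to 6800401, plus strand) differed between lists in the form of its promoter peak. In Q7SST, DKI and meclizine 1 peak of 2963, 3058 and 3092 bp ran across the start. In Q111SST, cyproheptadine and loxapine a peak lay on each side, and the gap over the start was 1139, 1268 and 1277 bp. The window shown above was wholly under a peak in the first 3 lists, and 0 of its 300 bases were under a peak in the others. Starts between a pair of peaks in exactly the lists where that of Rictor was were found for 0.110% of coding genes (24 genes), and 1609 genes had such a start in at least 1 list.

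The outer edges of the Rictor peaks moved less than the widths of single peaks. The span from the upstream edge to the downstream edge was 2963 bp in Q7SST, 3558 bp in Q111SST, 3210 bp after cyproheptadine, 3626 bp after loxapine, 3058 bp after DKI and 3092 bp after meclizine. The 3 split lists therefore had the widest spans, while their single peaks, at 1046, 963 and 1288 bp, were the narrowest of Rictor. The base pairs under peaks were 2963, 2419, 1942, 2349, 3058 and 3092 in the order above, so the lists with a joined peak covered 1.22 to 1.28 times as much as Q111SST, against 2.83 to 2.96 times by the width of the strongest peak. Strength was percentile 89.1, 84.6, 79.5, 80.8, 71.5 and 82.2: the highest and the lowest values both came from lists with a joined peak. In the split lists these were not the same peak, since the stronger one was upstream in Q111SST and cyproheptadine and downstream in loxapine. The upstream peak lay at 84.6, 79.5 and 78.3 in Q111SST, cyproheptadine and loxapine, and the downstream peak at 78.6, 72.1 and 80.8.

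**Figure D3:**
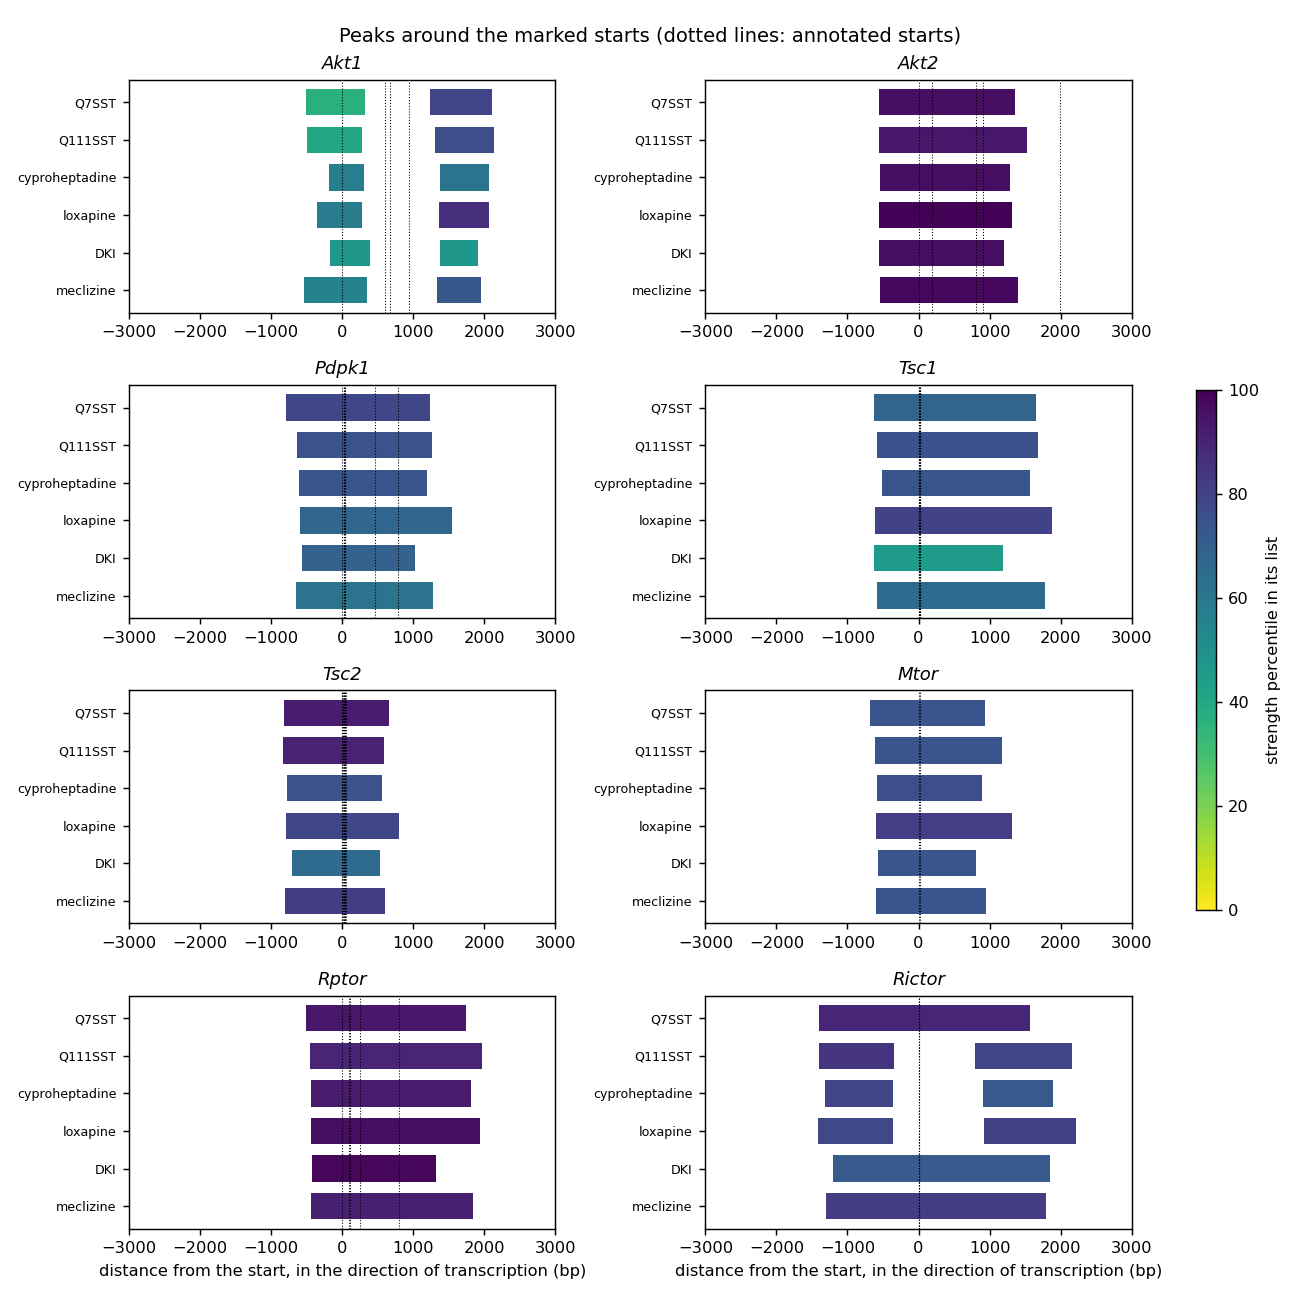
Peaks of the 6 lists within 3000 bp of the marked starts of the 8 genes, by distance in bp in the direction of transcription from the furthest upstream start of the cluster marked in all lists, coloured by strength percentile. Akt1 shows a gap of 923 to 1086 bp over its inner starts in all 6 lists, Rictor shows one in Q111SST, cyproheptadine and loxapine only, and the other 6 genes have 1 continuous peak.

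Both starts found in gaps lay in windows very rich in G+C, and the same held more widely. In Q111SST, 354 windows of coding genes lay between a pair of peaks, with a median of 75.3% G+C, against 61.7% for the 8749 windows wholly under a peak. In the other 5 lists the medians were 73.7% to 75.7% for windows between peaks and 61.3% to 62.0% for those under a peak. Windows between peaks numbered 354 in Q7SST, 498 after cyproheptadine, 526 after loxapine, 419 after DKI and 256 after meclizine. The part of base composition, read depth or nuclease digestion in the gaps was not tested.

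Each list was then compared with Q111SST, first for the wild-type line. A gene was called stronger or weaker at a difference of at least 5 percentile points, and wider or narrower where one peak was at least 5/4 as wide as the other. In Q7SST, 0 of the 8 genes were stronger, 1 was weaker (Tsc1, by -7.37 points), 1 was wider (Rictor) and 0 were narrower. Over all 12335 coding genes marked in both lists, 17.8% were stronger, 27.4% weaker, 9.83% wider and 13.3% narrower. The 7 other genes lay from 0.191 (Mtor) to 4.49 points (Rictor) above Q111SST, and the median difference was 2.63 points for the 8 genes against -1.04 for all genes. When strength was ranked among marked promoters only, 7 of the 8 genes passed 5 points as stronger and 1 as weaker, where 35.1% and 29.2% of all genes did, so the count near this limit depended on the scale.

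With cyproheptadine, 0 of the 8 genes were stronger and 3 were weaker: Tsc2 by -15.6 points, Akt1 by -14.5 and Rictor by -5.10. Over 12061 genes, 9.68% were stronger and 44.1% weaker, and the median difference was -3.74 points, against -1.46 for the 8 genes. The Akt1 call held for its downstream peak: with only peaks over a start the difference turned to 17 points, Rictor had no value, and 1 gene was weaker. The Rictor difference fell short of the limit with lists of equal size (-2.26 points) and among marked promoters (-4.79). None passed the width limit, which 1.90% of all genes passed as wider and 29.3% as narrower. Ranked among marked promoters only, 4 were stronger and 2 weaker, beside 25.4% and 41.6% of all genes.

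With loxapine, 5 of the 8 genes were stronger: Akt1 by 10.3 points, Mtor by 7.83, Rptor by 6.46, Akt2 by 5.32 and Tsc1 by 5.01, the last just past the limit and at 3.24 points, short of it, with lists of equal size. Tsc2 and Pdpk1 were weaker, by -11.8 and -6.92 points. Over 12519 genes, 18.6% were stronger and 22.4% weaker, and the median difference was -0.352 points, against 5.17 for the 8 genes. None of the 8 passed the width limit, which 5.58% of all genes passed as wider and 13.7% as narrower. Loxapine was the only list in which more of the 8 genes were stronger than weaker by this measure. Among marked promoters loxapine had 5 stronger and 3 weaker, beside 28.2% and 31.9% of all genes. It was not the only such list there, since Q7SST (7 stronger) and cyproheptadine (4 stronger) also had more stronger than weaker genes. The same held for Q7SST with lists of equal size (4 stronger) and at the pooled median score (6 stronger).

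With DKI, 5 of the 8 genes were weaker: Tsc1 by -30.0 points, Akt1 by -29.2, Tsc2 by -25.1, Rictor by -13.1 and Pdpk1 by -5.07. Rptor alone was stronger. With only peaks over a start, the Akt1 difference turned to 6.39 points. Over 12158 genes, 8.49% were stronger and 55.9% weaker, so the count of weaker genes was near that of all genes, with medians of -9.11 points for the 8 and -6.57 for all. Tsc1, Akt1 and Tsc2 lay low in this wide spread, with 4.74%, 5.14% and 8.38% of all genes lower. Akt1, Mtor and Rptor were narrower and Rictor wider, where 40.7% and 2.32% of all genes were. The Akt1 width ratio turned from 0.674 to 2.5 with peaks within 1 kb merged. Ranked among marked promoters, 4 were stronger and 4 weaker, beside 27.9% and 42.1% of all genes, and Pdpk1 turned from -5.07 to 6.3 points. The DKI list was the shortest, with 30758 peaks, and the part of list size was not tested beyond the alternatives given with the processing.

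With meclizine, 3 of the 8 genes were weaker, Pdpk1 by -12.2 points, Tsc1 by -9.77 and Tsc2 by -8.32, and 0 were stronger. Over 12615 genes, 10.6% were stronger and 27.8% weaker, with a median of -1.54 points against -2.87 for the 8. Rictor was wider and Akt1 narrower, where 6.10% and 12.8% of all genes were. The Akt1 width ratio turned from 0.743 to 1.14 for the peak over the start and to 3.01 with peaks within 1 kb merged. Ranked among marked promoters, 3 were stronger and 3 weaker, beside 26.6% and 27.3% of all genes.

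**Figure D4:**
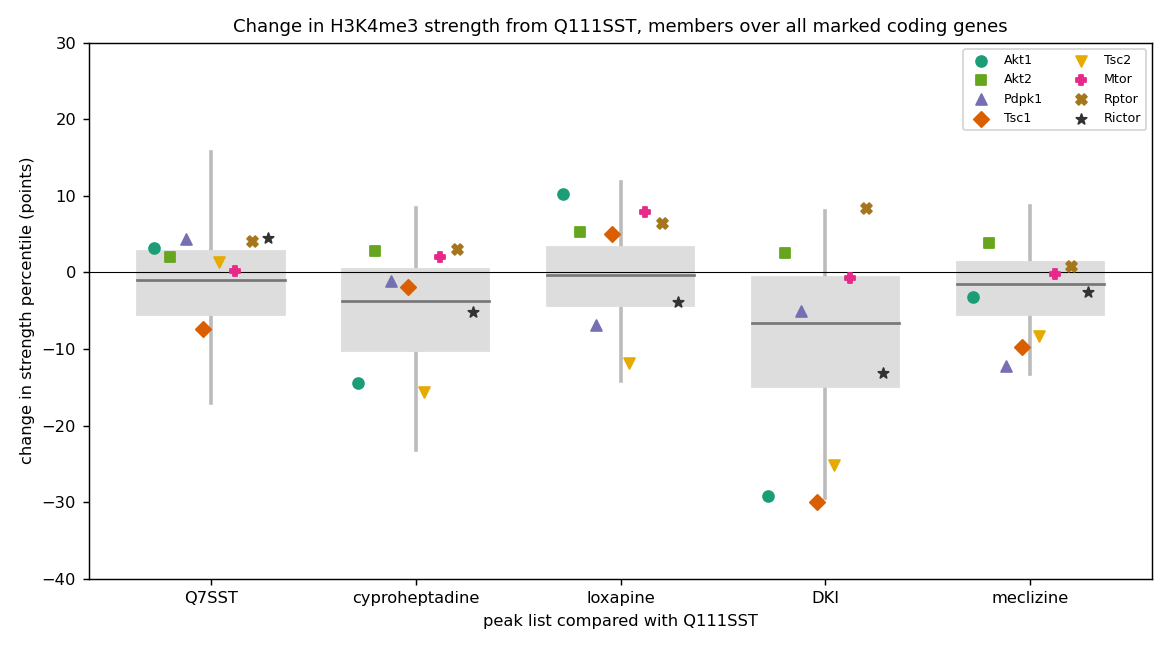
Difference in strength percentile from Q111SST, in points, for each of the 8 genes (symbols) in the 5 other lists. Grey boxes hold the middle 50% of all coding genes marked in both lists, the grey line across each box is their median, and the vertical lines reach from the 5th to the 95th percentile. Tsc2 lies below 0 with all 4 compounds, Tsc1 and Akt1 lie near -30 with DKI, and Rptor lies above the box with DKI.

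All 4 compound comparisons share the Q111SST list, so their values are not independent of each other. Within the study's groups, cyproheptadine and loxapine stood on opposite sides of Q111SST for the strongest peak of Akt1 (-14.5 and 10.3 points), but not for its upstream peak, where both were higher (57.7 and 58.8 against 40.6), and on the same side for Tsc2 (-15.6 and -11.8). DKI and meclizine stood on the same side for Tsc1 (-30.0 and -9.77), Tsc2 (-25.1 and -8.32) and Pdpk1 (-5.07 and -12.2). For Pdpk1 this depended on the scale, since the DKI difference turned to 2.99 points with lists of equal size and 6.3 among marked promoters. With no replicates, neither similarity nor difference between compounds could be tested.

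The pathway was widened to 52 other genes, from receptors to outputs. Of these, 50 (96.2%) were marked in all 6 lists, where 53.5% of all coding genes were, and 0 in none. All 6 other subunits of the mTOR complexes, all 3 of the Rheb group with the third subunit of the TSC complex, all 12 genes of lysosomal amino acid sensing, all 6 stress inputs, all 8 outputs and all 5 Akt substrates were marked throughout. The exceptions were in the group of 12 receptors, lipid kinases and phosphatases. Igf1r, the receptor of insulin-like growth factor, was marked in 4 lists, with none for cyproheptadine or DKI. Phlpp1, a phosphatase that acts on Akt, was marked in loxapine, DKI and meclizine, by peaks of 200 to 203 bp.

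Of the 51 of these genes marked in both Q7SST and Q111SST, 7 were stronger and 18 weaker, or 13.7% and 35.3%, beside 17.8% and 27.4% of all genes. After cyproheptadine 2 and 16 of 50 were (4.0% and 32% beside 9.68% and 44.1%), and after loxapine 7 and 14 of 51 (13.7% and 27.5% beside 18.6% and 22.4%). The shares were 8.0% and 54% of 50 after DKI (4 and 27 genes), beside 8.49% and 55.9%, and 9.8% and 23.5% of 51 after meclizine (5 and 12 genes), beside 10.6% and 27.8%. Their median differences were -0.943, -2.78, 0.571, -5.67 and -1.51 points in Q7SST and after the 4 compounds, beside -1.04, -3.74, -0.352, -6.57 and -1.54 for all genes. By width, 4 were wider and 5 narrower in Q7SST, where all genes gave 9.83% and 13.3%. Widths gave 0 and 15 after cyproheptadine (1.90% and 29.3% of all genes), 5 and 10 after loxapine (5.58% and 13.7%), 1 and 17 after DKI (2.32% and 40.7%), and 3 and 7 after meclizine (6.10% and 12.8%).

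The greatest differences among the 52 genes stood apart by gene. Rragd, a Rag GTPase that brings mTOR to the lysosome, lay at percentile 92.5 in Q7SST and 35.4 in Q111SST, a difference of 57.1 points, and at 32, 25.9, 28.1 and 47.1 with cyproheptadine, loxapine, DKI and meclizine. All 5 lists of the mutant line were therefore low at Rragd, and meclizine, 11.7 points above Q111SST, was the greatest upward difference for that compound. Inpp4b, a phosphatase of phosphoinositides, was the greatest difference in the other direction, at 33.9 in Q7SST and 74.7 in Q111SST. Prkaa2, a catalytic subunit of AMP-activated protein kinase, lay at 73.2 in Q111SST and at 40.6, 48.6, 39.7 and 37.0 with the 4 compounds, the greatest downward difference with cyproheptadine, DKI and meclizine. Its strongest peak was 534 bp wide in Q111SST and 2062 bp in Q7SST. It was 470 bp wide with cyproheptadine, 1654 bp with loxapine, 365 bp with DKI and 1779 bp with meclizine.

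Further extremes came from the input and output ends of the pathway. With loxapine the greatest upward difference was that of Igf1r, by 21.3 points to 82.7. Sgk1, a kinase activated by the rictor complex, was lowest with loxapine, at 58.8 against 86.5 in Q111SST. With loxapine its strongest peak was 3742 bp wide, against 1317 bp in Q111SST. Irs2, an adaptor of the insulin receptor, was 12.6 points higher with cyproheptadine, where its strongest peak was 694 bp wide against 2645 bp. Pik3r1, a regulatory subunit of phosphoinositide 3-kinase, was 10.3 points higher with DKI, with a peak of 801 bp against 3372 bp.

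**Figure D5:**
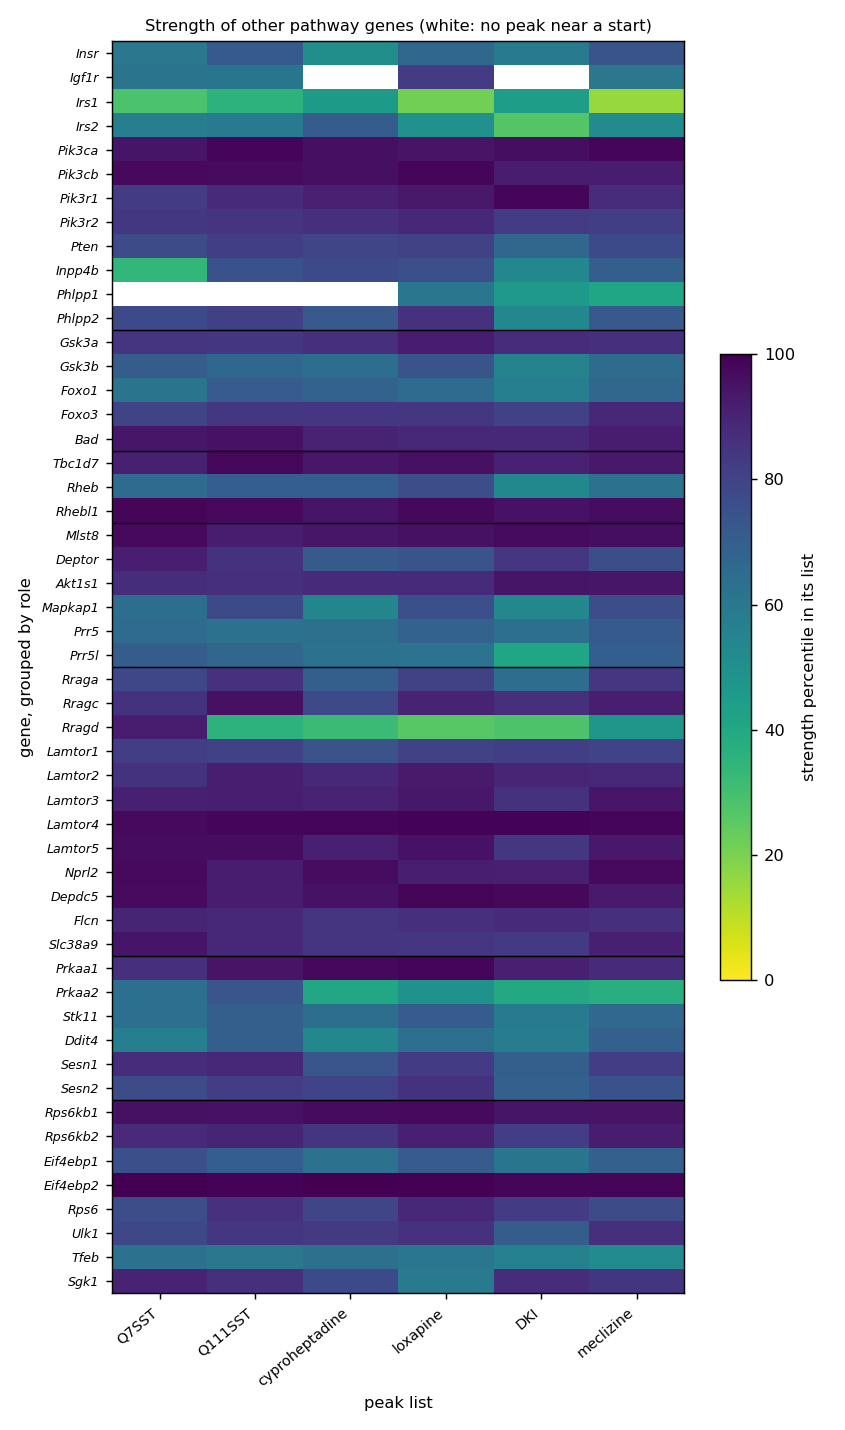
Strength percentile in each of the 6 lists (columns) of the 52 other pathway genes (rows, with lines between roles), from 0 (yellow) to 100 (dark), with white where no peak lay within 1 kb of a start. Rragd is dark only in Q7SST, Prkaa2 is darkest in Q111SST, and white cells occur only for Igf1r and Phlpp1.

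For each of the 8 genes, the coding gene most like it was taken as that with the smallest mean difference over 12 values, the percentiles of strength and width in the 6 lists, among 11713 genes marked in all 6. Tsc2 was matched by Nthl1 at 0 points, as they share the peak. Akt2 was closest to Alg10b (1.07 points), Rptor to Myl6 (1.43), Mtor to Nr4a1 (1.95), Tsc1 to Acbd6 (2.41) and Pdpk1 to Zfp410 (2.77). The matches were loosest for Akt1 (Rhov, 4.78) and Rictor (Scaf8, 5.50). Scaf8 had the same alternation of widths as Rictor, at 2980, 874, 838, 876, 2726 and 2749 bp in Q7SST, Q111SST, cyproheptadine, loxapine, DKI and meclizine. Width percentiles were among the values used for the match, so this likeness is not a separate observation.

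The cell type given in the labels was compared with promoter marks, beside the 55.4% to 59.9% of all coding genes marked in each list. Of 8 neural progenitor markers, 4 (cyproheptadine) to 7 (Q7SST, loxapine and meclizine) were marked, with Vim, Sox9 and Fabp7 marked in all 6 lists. Of 10 markers of the ventral forebrain and striatal lineage, 5 to 8 were marked, and the dopamine receptor genes Drd1 and Drd2 were marked in none. The striatal count was 5 of 10 for cyproheptadine and DKI and 6 of 10 for Q111SST, loxapine and meclizine, and the neural count was 4 and 5 of 8 for cyproheptadine and DKI. All of these were near the shares of all coding genes. The neural count of 6 of 8 in Q111SST and 7 of 8 in Q7SST, loxapine and meclizine, and the striatal count of 8 of 10 in Q7SST, lay above those shares, and the 1 to 3 of 10 markers of other cell types lay below them, with no test of either. The marks therefore did not single out the striatal lineage in 5 of the 6 lists. Of 10 markers of other cell types, 7 were marked in no list and Col1a1, a collagen gene, was marked in all 6. The other two were Aif1, a microglial marker, in Q7SST and Q111SST, and Cdh1, an epithelial cadherin, in Q7SST. In a single list per condition, a share of cells that carry the mark and its amount per cell cannot be told apart.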

How the data were processed

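Crosslinked chromatin was cut with micrococcal nuclease, H3K4me3 was immunoprecipitated, and single-end 50-base reads were sequenced. The submitters' processing notes name Trimmomatic 0.36, Bowtie2, SAMtools 1.3, MACS2 and build mm10. The deposited lists give each peak's position and a whole-number score made by the authors, whose lowest value was 10 in each list. The scale of the score, the calling threshold, any input control, read depth and whether triplicate treatments were pooled are not given in the sources used here, so no interval on depth was possible and p-values were not computed. Peak positions were checked against GRCm38 chromosome lengths, which were exceeded on 0 of 21 chromosomes.

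Peaks were assigned to GENCODE vM21 transcript starts within 1 kb. Where several lay near a gene, the one with the highest score, and then the widest, was taken. Its strength was the mid-rank percentile of its score in its list. Body peaks lay inside a gene but over 1 kb from every start. Coordinates count from 1. The assignment was checked against an exhaustive pairing of peaks and starts on part of the Q111SST list. The calls were also checked with rises in strength and width planted in a copy of that list. Python 3.11.15, numpy 2.4.6, pandas 2.3.3 and matplotlib 3.10.9 were used.

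The 8 genes, the 52 other pathway genes and the markers were chosen with earlier results of these data known. A further gene of the pathway list is not reported here. Named were all 8 genes, pathway genes not marked in all 6 lists, those furthest above and below Q111SST in each comparison, the closest gene to each of the 8, and genes sharing a peak with them. Alternatives were peaks over the start, a window of 5 kb, lists of equal size, a stricter score, merged peaks, coding transcripts only, summed peaks, and ranks among marked promoters. The comparison of G+C content between windows in gaps and under peaks was added after the values were seen.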

Additional observations from a re-analysis of the deposited data

How the results depend on the processing

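No paired analysis was possible because a single peak list stands for each condition. All 8 genes were marked in every list under each alternative with 2 exceptions. With a peak required over the start, Rictor was not marked in Q111SST, cyproheptadine and loxapine, leaving 7. With scores at or above the pooled median of 47, Akt1 and Tsc1 were not marked in DKI, where their scores were 43 and 41, leaving 6 genes marked in DKI and in all 6 lists. Counts of genes past a limit were small and moved with the scale. For the settings below, the share of all coding genes past the limit was computed only among marked promoters, and is given above with each list. The other counts therefore have no share of all genes to be read against. Members stronger than in Q111SST numbered, in Q7SST, 4 with lists of equal size (30758 peaks), 6 at that median and 7 ranked among marked promoters. With cyproheptadine they numbered 2, 2 and 4, with DKI 2, 2 and 4, and with meclizine 1, 2 and 3. With a peak over the start they numbered 1 with cyproheptadine, 2 with DKI and 1 with meclizine. Weaker genes numbered 1 (peak over the start) and 5 (pooled median) with cyproheptadine, and 3 under both for DKI. Requiring a peak over the start, 0 genes were wider in Q7SST, DKI and meclizine, where Rictor had no value to compare, 1 was narrower with cyproheptadine and 0 with meclizine. With peaks within 1 kb merged, 2 were wider in Q7SST, DKI and meclizine and 0 narrower with meclizine. With peaks near a start summed, 0 were wider and 1 narrower in Q7SST, 3 narrower with cyproheptadine, and 2 wider and 0 narrower with meclizine.

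Of 273 strength differences recomputed, 18 changed sign, 4 of them from past the 5-point limit. Those 4 included the strength change of Akt1 with a peak over the start (17 points with cyproheptadine and 6.39 with DKI). There the upstream peak replaced the downstream one in Q111SST and cyproheptadine, while in DKI the upstream peak was already the one taken. The rest were the strength change of Pdpk1 with DKI (2.99 points with lists of equal size, 6.3 among marked promoters). Differences under the limit that turned and reached it were Akt1 with meclizine (15.5 points with a peak over the start), Pdpk1 with cyproheptadine (5.69 among marked promoters), and Mtor with DKI (7.42 with lists of equal size, 13.5 among marked promoters) and with meclizine (7.82 at the pooled median, 5.0 among marked promoters). Akt1 in Q7SST turned from 3.2 to -4.11 with a peak over the start. The width of Akt1 over Q111SST became 2.5 with DKI and 3.01 with meclizine when peaks were merged, and 1.14 with meclizine for a peak over the start. Except where said, the cause was not tested. Of the 20 strength differences of at least 5 points, 20 stayed past that limit with peaks merged, with coding transcripts only and at 5 kb, 18 among marked promoters and 17 with lists of equal size, while 16 of 18 stayed with a peak over the start and 18 of 18 at the pooled median. Depth was unknown, so weak peaks absent from a list cannot be told from peaks not detected.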
